A study of Homo sapiens with 4 samples.

Results

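The genes described here encode the RIG-I-like receptors, their adaptor MAVS and transcription factors of interferon signalling. They were chosen by name, as the rows of the count files named DDX58 (the name the files use for RIG-I), IFIH1, DHX58, MAVS, IRF1, IRF3, IRF7, IRF9 and STAT2. All 9 were found among the 50868 genes of the files, and all 9 passed the filter on low counts that left 15222 genes for testing. RNA-seq was done on 4 libraries of A549 cells, a human lung adenocarcinoma line. There were 2 libraries labelled control, from cells that the study describes as carrying the empty vector, and 2 labelled USP12-overexpressed, with tagged human USP12, a deubiquitinase, in a lentiviral pLVX vector. Whether the 2 libraries of a group came from separate cultures is not stated, so the p-values measure only the spread between these libraries.

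RIG-I (DDX58) and MDA5 (IFIH1) are cytoplasmic helicases that bind viral RNA and signal through caspase recruitment domains to MAVS on the mitochondrial surface. LGP2 (DHX58) lacks those domains and tunes the other two. MAVS leads, through the kinases TBK1 and IKKε, to the activation of IRF3 and IRF7, which switch on interferon genes. Secreted interferon then acts through its receptors and JAK kinases to form ISGF3, a complex with STAT2 and IRF9 that binds the interferon-stimulated response element (ISRE). IRF1 is induced by interferon-γ through an element called GAS and by NF-κB. Several of these genes are themselves induced by interferon, so that in epithelial cells their transcript levels are known to follow interferon exposure.

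The libraries held between 14280081 and 16305356 counts, at which 3 counts correspond to 0.166 to 0.227 CPM (counts scaled to a library of 1000000 counts, with library sizes from the TMM method of edgeR). USP12 was at 15.2 and 34.4 CPM in control cells, against 1745 and 2235 CPM in USP12 cells, in the direction of the labels. All 6 epithelial markers were detected, with a summed level of 12896 and 7474 CPM in control cells, against 7316 and 6794 CPM in USP12 cells. KRT19, for example, was at 437 and 114 against 68.7 and 55.9 CPM, and EPCAM at 28.5 and 14.1 against 11 and 9.70 CPM. KRT8 and KRT18 were also lower in both USP12 libraries. KRT7, at 3258 and 2414 against 3041 and 2819 CPM, and CDH1, at 130 and 99.1 against 76.5 and 134 CPM, overlapped between the groups. Of 3 genes listed as lost in A549 cells, CDKN2A and CDKN2B had 0 counts in the 4 libraries, while MTAP had 47 and 102 counts in control cells, against 75 and 74 in USP12 cells. Of the markers that define leukocytes, fibroblasts and endothelium, PTPRC, CD3E, DCN and VWF had at most 3 counts in any library. Other markers of these cells were detected, among them CD68 with 686 to 1044 counts, CD14 with 85 to 424, COL1A1 with 47 to 262, CDH5 with 136 and 96 against 2 and 5, and PECAM1 with 68 and 56 against 4 and 14. The summed level of the 3 endothelial markers was 15.4 and 8.59 CPM in the control and 0.432 and 1.32 CPM in the USP12 libraries, that of the 5 leukocyte markers 112 and 52.5 against 77.7 and 60.5 CPM, and that of the 4 fibroblast markers 14.9 and 2.83 against 20.2 and 16.2 CPM. Mitochondrial transcripts took 13.8% and 14.5% of the counts in control cells, against 25.3% and 23.2% in USP12 cells. The part of these markers in the results below was not tested. The control libraries stood apart from each other, with an SD of the log2 ratio across all tested genes of 1.32, against 0.62 between the USP12 libraries. The column heading of control replicate 1 begins with another date-like number than the other 3, and what it marks cannot be told apart from that library itself.

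The promoters of 4 of the genes are shown because they hold letters that match elements through which interferon and NF-κB are known to act. RefSeq windows of GRCh38.p14, from 250 bases before to 50 bases after the transcription start, were found for 6 of the 9 genes, not for DHX58, IRF3 and IRF7. The motifs searched on both strands were an ISRE core of GAAA, any 2 bases and GAAA again, a shorter IRF core (AANNGAAA) that overlaps it, the GAS element (TTCNNNGAA) and the NF-κB consensus. Each window is given 5′ to 3′ on the strand of its gene, with capitals at the letters of any motif match.
DDX58 (RIGI in RefSeq, chr9:32526147-32526446, minus strand): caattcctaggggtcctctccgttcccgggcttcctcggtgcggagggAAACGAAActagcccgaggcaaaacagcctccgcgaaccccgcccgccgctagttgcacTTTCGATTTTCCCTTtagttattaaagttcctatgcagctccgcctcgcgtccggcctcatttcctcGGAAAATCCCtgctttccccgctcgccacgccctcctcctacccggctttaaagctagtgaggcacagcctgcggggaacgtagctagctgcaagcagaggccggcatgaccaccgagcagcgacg
IFIH1 (chr2:162318635-162318934, minus strand): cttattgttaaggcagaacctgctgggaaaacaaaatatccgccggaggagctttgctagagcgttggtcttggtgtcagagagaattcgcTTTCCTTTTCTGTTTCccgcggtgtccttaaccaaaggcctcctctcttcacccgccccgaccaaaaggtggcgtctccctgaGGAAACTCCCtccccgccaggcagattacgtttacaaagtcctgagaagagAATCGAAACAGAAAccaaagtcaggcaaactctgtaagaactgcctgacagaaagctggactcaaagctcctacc
IRF1 (chr5:132490724-132491023, minus strand): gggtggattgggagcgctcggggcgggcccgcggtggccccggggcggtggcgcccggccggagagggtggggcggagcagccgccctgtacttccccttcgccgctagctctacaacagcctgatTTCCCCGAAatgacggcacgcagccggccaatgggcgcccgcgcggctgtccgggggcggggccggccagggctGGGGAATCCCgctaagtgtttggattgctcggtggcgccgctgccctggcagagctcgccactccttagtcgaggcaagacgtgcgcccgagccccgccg
IRF9 (chr14:24161015-24161314, plus strand): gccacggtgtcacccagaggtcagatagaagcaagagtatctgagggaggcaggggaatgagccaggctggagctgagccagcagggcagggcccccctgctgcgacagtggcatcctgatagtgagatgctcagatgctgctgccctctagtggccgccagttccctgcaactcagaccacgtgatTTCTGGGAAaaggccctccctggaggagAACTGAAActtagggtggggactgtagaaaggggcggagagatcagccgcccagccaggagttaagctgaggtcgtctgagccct

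The IFIH1 window held 3 ISRE core matches, the 1 nearest to the start lying from base -21 to -12. The others, from -159 to -150 and from -153 to -144, overlap each other. No other window of the 6 held that core, which was in 3.57% of the 35116 promoters of the same length. An IRF core was in the DDX58, IFIH1 and IRF9 windows and in 22.8% of all promoters. In DDX58 it occurred 3 times, at -202, -143 and -136, those at -143 and -136 overlapping, and in IRF9 1 time, at -35. GAS matches lay at -124 in IRF1 and at -63 in IRF9, an element present in 7.66% of all promoters. An NF-κB match was found at -76 in both DDX58 and IFIH1 and at -50 in IRF1, and in 11.3% of all promoters. The MAVS and STAT2 windows held none of the 4 motifs. A match describes the letters of these windows only.

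Across the 9 genes, the sensors IFIH1 and DHX58 and the factor IRF7 were 9.03-fold to 11.6-fold lower in USP12 cells by their fitted values. For IFIH1 this rested mostly on control replicate 2, with a log2 fold change of -0.96 against control replicate 1 alone. STAT2, IRF1 and IRF9 were 1.68-fold to 2.08-fold lower, and MAVS was at a similar level in the 4 libraries. For DDX58 and IRF3 the direction turned with the control library. By the study's criterion for downregulated genes, a p of at most 0.05 with a log2 fold change at or under -1, where the p was taken here before adjustment, 3 of the 9 genes were lower in USP12 cells (IFIH1, DHX58 and IRF7), where 4.41% of all tested genes met it. None of the 9 met the mirrored criterion, which 2.92% of all genes met. In 6 of the 9 genes both USP12 libraries lay below both control libraries, as did 17% of all genes, and in 1 gene, MAVS, both lay above, as did 19.5%. The median log2 fold change was -1.05 over the 9 genes and -0.06 over all tested genes. No gene of the 15222 (0%) had an adjusted p under 0.05 in edgeR's quasi-likelihood test, while 1155 had an unadjusted p under 0.05, 3 of the 9 genes among them. With the DESeq2 Wald test 3 of the 9 genes (IFIH1, DHX58 and IRF7) were lower with an adjusted p under 0.05, as were 1.79% of all genes. With the edgeR exact test 2 were (DHX58 and IRF7), as were 1.72% of all genes. Exact permutation of 2 against 2 libraries cannot give a p below 0.333 for any gene. With the mitochondrial genes left out before scaling, an alternative added after the data had been seen, the same 3 genes met the criterion and the median log2 fold change was -1.06. In bulk RNA, fewer cells that express a gene and less RNA per cell cannot be told apart.

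**Figure D1:**
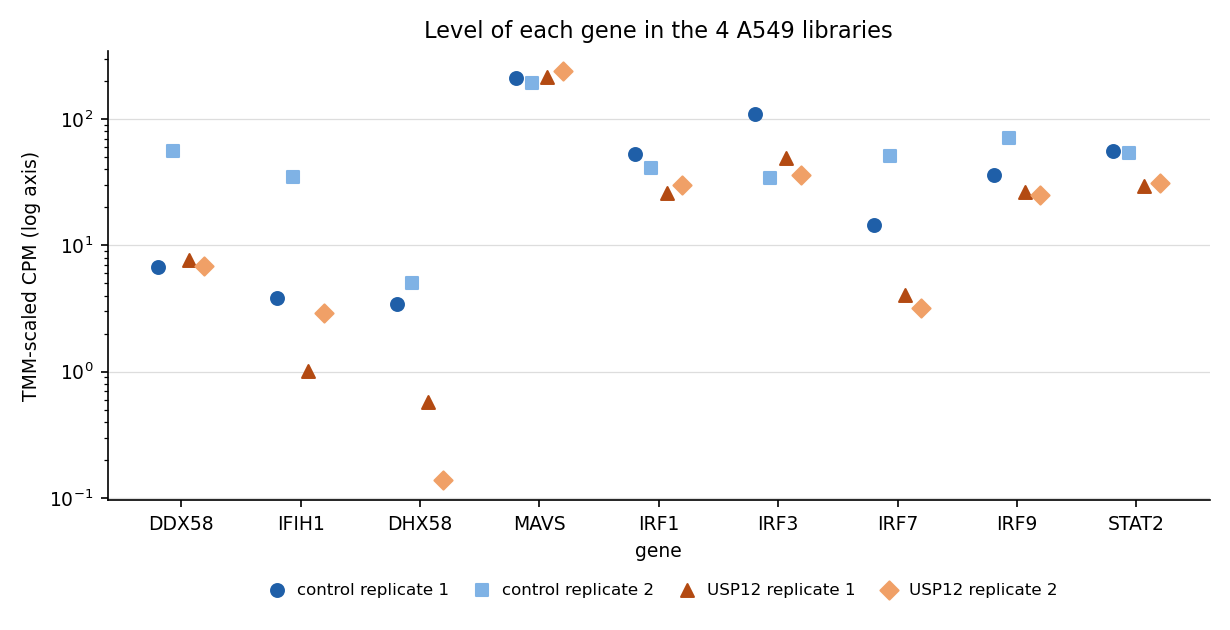
Level of each gene in TMM-scaled CPM (log axis) in the 4 libraries, 1 symbol per library. IRF7, DHX58 and IFIH1 are lowest in the USP12 libraries, DDX58 is high in control replicate 2 alone, and DHX58 in USP12 replicate 2 (2 counts) is under the level of 3 counts.

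DDX58 (ENSG00000107201), on chromosome 9 of GRCh38 from 32455302 to 32526208, encodes RIG-I. It had 90 and 1015 counts in control cells, against 107 and 100 in USP12 cells, or 6.81 and 56.2 CPM against 7.70 and 6.93 CPM. Only control replicate 2 was high, and control replicate 1 was below both USP12 libraries. In USP12 cells the log2 fold change was -2.11 (SE 0.94, edgeR adjusted p = 0.715). Against control replicate 1 alone it was 0.11, and against control replicate 2 alone -2.94, so the direction turned with the control library. A gene annotated on the same strand, ENSG00000288684, shares exon sequence with DDX58 and has no counts of its own. Fragments from the shared sequence cannot be assigned to either gene with certainty.

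IFIH1 (ENSG00000115267, chromosome 2, 162267074 to 162318684), the gene of MDA5, had 51 and 631 counts in control cells, against 14 and 42 in USP12 cells. These were 3.86 and 35.0 CPM against 1.01 and 2.91 CPM. The groups did not overlap, but control replicate 1 lay nearer to the USP12 libraries than to control replicate 2. This gave a log2 fold change of -3.30 (SE 1.13, edgeR adjusted p = 0.516), or 9.88-fold lower. It was -0.96 against control replicate 1 alone, where it no longer met the criterion (edgeR p before adjustment = 0.204), and -4.15 against control replicate 2 alone.

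DHX58 (ENSG00000108771, chromosome 17, 42101404 to 42112714), the gene of LGP2, had the fewest counts of the 9 genes in each library. It had 45 and 91 counts in control cells, against 8 and 2 in USP12 cells. Both control libraries were above both USP12 libraries, at 3.41 and 5.04 against 0.576 and 0.139 CPM. The log2 fold change was -3.54 (SE 0.89, edgeR adjusted p = 0.324). The summed counts gave a ratio of control to USP12 of 12.3, with an exact 95% interval from 6.50 to 26.3 that covers counting error only. Against control replicates 1 and 2 alone the log2 fold change was -3.22 and -3.80, so that DHX58 was lower by a similar amount against either, unlike DDX58 and IFIH1. Without USP12 replicate 2 it was -2.86 and no longer met the criterion (edgeR p before adjustment = 0.0781).

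MAVS (ENSG00000088888, chromosome 20, 3846799 to 3876123), the adaptor of both signalling sensors, was the most abundant of the 9 genes by counts, with 2819 and 3509 in control cells, against 2993 and 3462 in USP12 cells. Its level was 213 and 194 CPM against 215 and 240 CPM, a narrow range in which the USP12 libraries lay just above the control libraries. A log2 fold change of 0.16 (SE 0.33, edgeR adjusted p = 0.971) resulted, which over the 12 alternative settings was between 0.08 and 0.23.

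IRF3 (ENSG00000126456, chromosome 19, 49659569 to 49665875), the factor phosphorylated downstream of MAVS, had 1444 and 617 counts in control cells, against 685 and 525 in USP12 cells. At 109 and 34.2 CPM against 49.3 and 36.4 CPM, control replicate 1 was high and control replicate 2 was below both USP12 libraries. The log2 fold change of -0.74 (SE 0.60, edgeR adjusted p = 0.912) was -1.34 against control replicate 1 alone and 0.32 against control replicate 2 alone. Its direction therefore turned with the control library, the opposite way to DDX58. BCL2L12 overlaps IRF3 on the opposite strand, and since no source says whether counting used the strand, both counts are uncertain. BCL2L12 had 616 and 273 counts in control cells, against 252 and 272 in USP12 cells.

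IRF7 (ENSG00000185507, chromosome 11, 612553 to 615983), which amplifies interferon production and is itself interferon-induced, had 191 and 916 counts in control cells, against 56 and 46 in USP12 cells. At 14.5 and 50.8 CPM against 4.03 and 3.19 CPM, both USP12 libraries were well below both control libraries. Its log2 fold change was -3.17 (SE 0.72, edgeR adjusted p = 0.298), 9.03-fold lower, the smallest adjusted p of the 9 genes. It was -1.99 against control replicate 1 alone and -3.81 against control replicate 2 alone. IRF7 met the criterion under each of the 12 alternatives.

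IRF9 (ENSG00000213928, chromosome 14, 24161234 to 24168043), the DNA-binding subunit of ISGF3, had 481 and 1280 counts in control cells, against 368 and 364 in USP12 cells. Its level was 36.4 and 70.9 CPM against 26.5 and 25.2 CPM, the USP12 libraries being close to each other and below both controls. For IRF9 the log2 fold change was -1.05 (SE 0.47, edgeR adjusted p = 0.712), -0.48 against control replicate 1 alone and -1.46 against control replicate 2 alone. A gene annotated on the same strand, ENSG00000259529, shares exon sequence with IRF9 and had 502 and 884 counts in control cells, against 185 and 116 in USP12 cells, so the split of fragments between them is uncertain.

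STAT2 (ENSG00000170581, chromosome 12, 56341597 to 56360203), the transactivating subunit of ISGF3, had 743 and 976 counts in control cells, against 411 and 447 in USP12 cells. At 56.2 and 54.1 CPM against 29.6 and 31.0 CPM, replicates of a group were nearly level and the groups were apart. STAT2 had a log2 fold change of -0.87 (SE 0.37, edgeR adjusted p = 0.688), 1.82-fold lower. It was -0.88 and -0.84 against control replicates 1 and 2 alone, the narrowest pair of values among the 8 genes with a negative log2 fold change.

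IRF1 (ENSG00000125347, chromosome 5, 132440440 to 132508719), a factor induced by interferon-γ and NF-κB, had 702 and 745 counts in control cells, against 358 and 438 in USP12 cells. At 53.1 and 41.3 CPM against 25.8 and 30.3 CPM, the groups did not overlap. A log2 fold change of -0.75 was found (SE 0.40, edgeR adjusted p = 0.810), 1.68-fold lower, and -0.91 and -0.56 against control replicates 1 and 2 alone. IRF1-AS1, on the opposite strand, shares exon sequence with IRF1. It had 8 and 21 counts in control cells, against 35 and 42 in USP12 cells, fewer than IRF1 in each library. ENSG00000283782, also on the opposite strand, shares exon sequence with IRF1 and has no counts of its own. Since the strand setting of the counting is not given, the counts of IRF1 and IRF1-AS1 are uncertain.

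**Figure D2:**
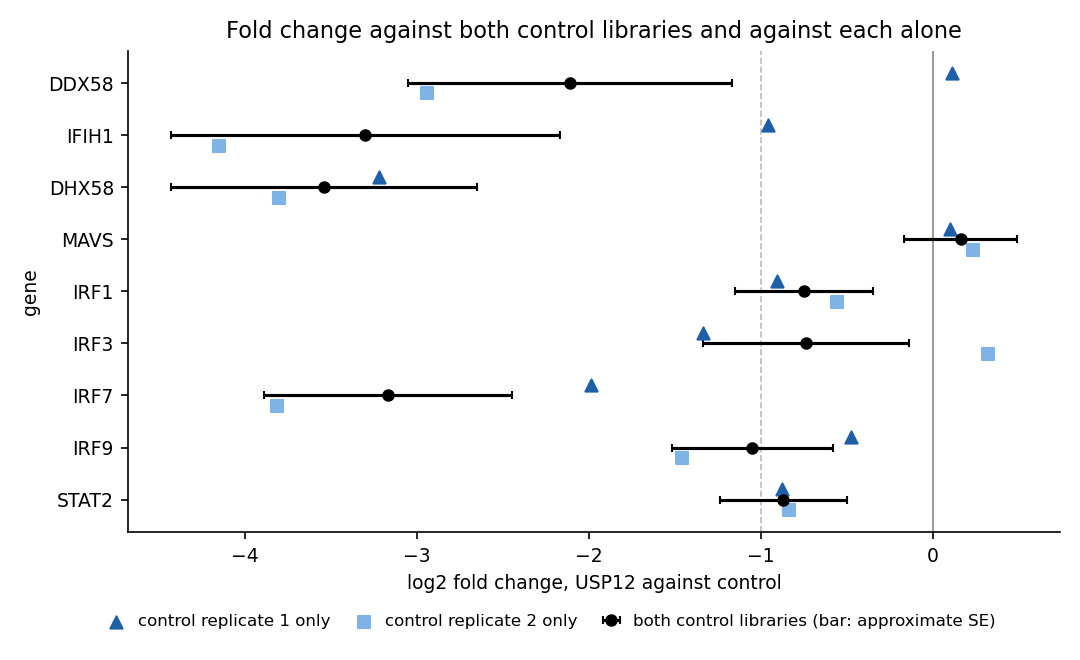
Log2 fold change of each gene in USP12 cells against both control libraries (black, bar for the approximate SE) and against control replicate 1 or 2 alone (triangles and squares). The dashed line is at -1. DDX58 and IRF3 lie on both sides of 0, while IFIH1, DHX58, IRF7, IRF9, STAT2 and IRF1 are below 0 against either control.

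Levels of different genes were compared per kilobase of the canonical transcript of GENCODE release 44. In both USP12 libraries the order from the highest was IRF3, MAVS, IRF9, IRF1, STAT2, IRF7, DDX58, IFIH1 and DHX58, from 30.9 and 22.8 CPM per kilobase for IRF3 to 0.222 and 0.0535 for DHX58. The ranges of neighbours in that order were apart except those of IRF7 (2.10 in replicate 1 and 1.66 in replicate 2) and DDX58 (1.66 in replicate 1), which touched. The order of the control libraries was not the same. In control replicate 1 it began with IRF3 at 68.5 CPM per kilobase and ended with DDX58 at 1.47, DHX58 at 1.31 and IFIH1 at 1.08. In control replicate 2 IRF9 at 43.6 and IRF7 at 26.4 CPM per kilobase came before IRF3 at 21.4, and DDX58 reached 12.2, level with STAT2 at 12.3. MAVS and STAT2 differed little per length between the controls, at 18.2 and 16.6 for MAVS and 12.8 and 12.3 for STAT2. By the mean of the 2 control libraries the order was IRF3, IRF9, MAVS, IRF7, IRF1, STAT2, DDX58, IFIH1 and DHX58, and among neighbours only the ranges of IRF9 and MAVS and those of STAT2 and DDX58 were apart. The canonical transcript length of MAVS, 11731 bases, lowers its per-length level relative to its counts.

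Several of the 9 genes also differed between the control libraries. Control replicate 2 was above control replicate 1 by a log2 of 1 or more in 3 of the 9 genes, and in 22.9% of all tested genes. These were IFIH1 (3.14), DDX58 (3.02) and IRF7 (1.80). IRF9 was higher by 0.96 and DHX58 by 0.55, and IRF3 was lower in control replicate 2, with a log2 difference of -1.67. STAT2, MAVS and IRF1 differed by -0.06, -0.13 and -0.36. Between the USP12 libraries the largest differences were 1.41 for IFIH1 and -1.38 for DHX58, from 14 and 42 and from 8 and 2 counts, and the others were within 0.44.

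GC content moved with the difference between the control libraries. Across 15094 tested genes, which are not independent replicates, Spearman's rho between the GC content of the canonical transcript and the log2 difference of control replicate 2 from replicate 1 was -0.60. The median difference was 1.02 in the decile of lowest GC content and -1.08 in the decile of highest. IRF7, at 66.6% GC in the highest decile, went the other way than its decile (1.80 against -1.08), as did DHX58 (0.55 against -0.67) and IRF9 (0.96 against -0.43). IRF3, at 61.3% GC, went with its decile (-1.67 against -0.92), and STAT2 (-0.06 against -0.06), MAVS (-0.13 against -0.06) and IRF1 (-0.36 against -0.43) lay near theirs. DDX58 and IFIH1 went the way of their deciles but farther, with 3.02 against 0.95 and 3.14 against 0.79. With a GC content offset for each library, an alternative added after the data had been seen, the log2 fold change was -3.20 for IRF7, -3.20 for IFIH1, -3.40 for DHX58, -1.84 for DDX58 and -0.19 for IRF3.

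**Figure D3:**
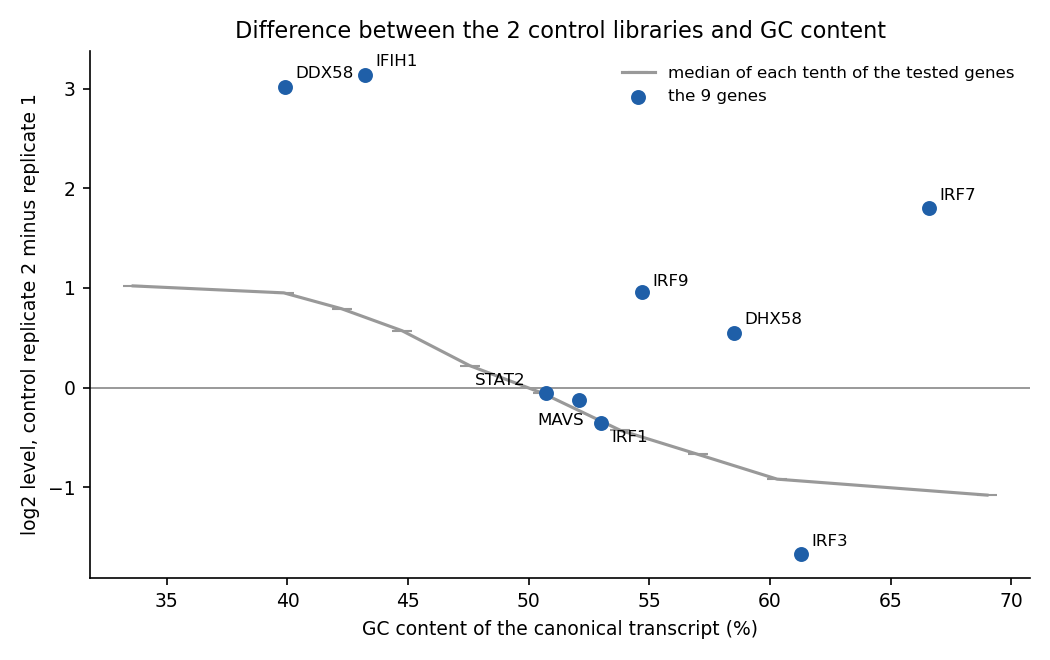
Log2 level of control replicate 2 minus control replicate 1 (vertical axis) against the GC content of the canonical transcript in percent, for the 9 genes (points) and as the median of each GC decile of the tested genes (line). DDX58, IFIH1, IRF7, IRF9 and DHX58 are above the line, MAVS, STAT2 and IRF1 are on it and IRF3 is below it.

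Genes with a pattern like that of DDX58 or IRF1 were sought over the 4 libraries, by the distance between log2 CPM values centred on the mean of each gene. The 5 genes nearest to DDX58 were F7 (distance 0.17), a coagulation factor, PARP9 (0.34), SAMD9 (0.46), USP18 (0.49) and HERC6 (0.51), the last 4 known as interferon-stimulated genes. PARP9, for example, was at 16.6 and 118 CPM in control cells, against 20.5 and 20.2 CPM in USP12 cells. The 5 nearest to IRF1 were TTC7A (0.04), CXorf40A (0.09), TTLL12 (0.09), CARS2 (0.10) and FKBP11 (0.10). Among the 9 genes themselves, the nearest to IRF1 was STAT2 (0.28) and the nearest to DDX58 was IRF9 (1.52). A pattern over 4 libraries is a description of those libraries.

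Of 36 tested regulators and adaptors of the RIG-I-like receptors, 1 was lower and 0 higher by the criterion. Among all tested genes 4.41% were lower and 2.92% higher by it, shares that stand beside the counts of every list below. The median log2 fold change was -0.14 beside -0.06 for all genes. The lower gene was DDX60, a helicase cofactor of RIG-I (log2 fold change -3.36, SE 1.17, edgeR adjusted p = 0.528). It had 39 and 720 counts in control cells, against 25 and 34 in USP12 cells. IKBKE, the gene of IKKε, had a log2 fold change of -1.10 (SE 0.54, edgeR adjusted p = 0.774), TRIM25, a ubiquitin ligase of RIG-I, -0.89 (SE 0.46) and NLRC5 -1.31 (SE 0.68). NLRC5 was at -0.20 against control replicate 1 alone and at -1.92 against control replicate 2 alone. Leaving out control replicate 1 gave a count of 4, and leaving out control replicate 2 gave 5. Among other nucleic acid sensors and adaptors, 1 of 13 tested genes was lower and 0 were higher, with a median of -0.59. SAMHD1, a nucleotide hydrolase that restricts viruses, had 359 and 1086 counts in control cells, against 181 and 229 in USP12 cells (log2 fold change -1.60, SE 0.53, edgeR adjusted p = 0.497). TMEM173, the gene of STING, had -1.22 (SE 0.62), TRIM21, a cytosolic antibody receptor, -0.73 (SE 0.38) and EIF2AK2, the gene of PKR, -1.20 (SE 0.83). EIF2AK2 was at 39.7 and 275 CPM in control cells, against 70.2 and 66.8 CPM in USP12 cells. Its log2 fold change was positive against control replicate 1 alone (0.80) and negative against control replicate 2 alone. Leaving out control replicate 1 made that count 5, and leaving out any other library made it 0.

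Interferon transcripts themselves were rare. None of 22 interferon genes passed the filter on low counts, and 11 had 0 counts in the 4 libraries. Their summed counts were 2 and 39 in control cells, against 16 and 8 in USP12 cells. The following were named after their values were seen. IFNL1 had 14 counts, IFNL2 15 and IFNL3 5 in control replicate 2, and in the other libraries the 3 genes together had 1 count. IFNL2 and IFNL3 are near-identical copies, so their split is uncertain. IFNB1 had 1 count, in control replicate 2, and IFNE had 0 and 2 counts in control cells, against 14 and 7 in USP12 cells.

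For the receptors and JAK kinases, 0 of 9 tested genes met the criterion in either direction, beside 4.41% (lower) and 2.92% (higher) of all genes. The median log2 fold change was -0.23. In 3 of the 9 genes both USP12 libraries lay below both control libraries, beside 17% of all genes. Among the 3 were both chains of the interferon-γ receptor. Their log2 fold changes were -0.74 for IFNGR2 (SE 0.39, edgeR adjusted p = 0.805) and -0.83 for IFNGR1 (SE 0.48, edgeR adjusted p = 0.839). Both values were more negative against control replicate 1 alone than against control replicate 2 alone. Against the latter they were -0.41 for IFNGR2 and -0.27 for IFNGR1. In 1 of the 9 genes both USP12 libraries lay above, beside 19.5% of all genes. JAK1 was at 0.55 (SE 0.38) and TYK2 at -0.64 (SE 0.50). Without control replicate 2, 3 of the 9 were lower by the criterion. Of 11 other genes tested, for IRFs, STATs and the IRF2-binding proteins IRF2BP1, IRF2BP2 and IRF2BPL, 0 met the criterion in either direction. Their median was 0.14. IRF2BP2 had 0.71 (SE 0.35), STAT4 1.11 (SE 0.69) and STAT5A -0.61 (SE 0.51). That count was 1 without control replicate 1. Of 13 negative regulators tested, 1 was lower and 1 higher by the criterion, with a median of -0.21. ISG15, a ubiquitin-like modifier that stabilises USP18, had 225 and 1179 counts in control cells, against 30 and 16 in USP12 cells (log2 fold change -4.65, SE 0.85, edgeR adjusted p = 0.210). SOCS2, a suppressor of cytokine signalling, had 20 and 79 against 134 and 161 counts (log2 fold change 1.81, SE 0.66, edgeR adjusted p = 0.567), and USP18, which restrains the type I receptor, -1.59 (SE 0.82). USP18 was at 0.18 against control replicate 1 alone and at -2.36 against control replicate 2 alone. PIAS3 had 0.44 (SE 0.36). The count of lower genes was 2 without either control library.

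Targets of ISGF3 held the largest share of genes past the criterion among the 7 lists with tested genes. Of 25 tested genes 13 were lower by the criterion and 0 higher, beside 4.41% and 2.92% of all genes. The median log2 fold change was -2.27. IFI6 had 1713 and 5473 counts in control cells, against 109 and 70 in USP12 cells (log2 fold change -5.09, SE 0.62, edgeR adjusted p = 0.139). OAS1, a sensor of double-stranded RNA, had 4607 and 6968 against 825 and 707 counts (log2 fold change -2.76, SE 0.36, edgeR adjusted p = 0.154). BST2, the gene of tetherin, had 112 and 895 against 1 and 0 counts, and IFI27 had 42 and 551 against 7 and 7 counts. Control replicate 2 was above control replicate 1 by a log2 of 1 or more in 22 of the 25, beside 22.9% of all genes. The median was -0.01 against control replicate 1 alone and -3.01 against control replicate 2 alone, and the count of lower genes was 8 and 25. In 12 of the 25 both USP12 libraries lay below both control libraries, beside 17% of all genes. OAS1 was similar against either control, with -2.67 and -2.83.

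Of 16 tested targets of IRF1 and interferon-γ, 3 were lower by the criterion and 0 higher, beside 4.41% and 2.92% of all genes. The median log2 fold change was -0.75. Control replicate 2 was above control replicate 1 by a log2 of 1 or more in 5 of the 16, beside 22.9% of all genes, and members differed between the controls in both directions, with 228 and 48.3 CPM for ICAM1 and 1.14 and 3.88 CPM for CD274. The median difference was -0.12. The median log2 fold change against control replicates 1 and 2 alone was -0.84 and -0.68. ICAM1, an adhesion molecule that is also an NF-κB target, had 3007 and 871 counts in control cells, against 81 and 96 in USP12 cells (log2 fold change -4.46, SE 0.82, edgeR adjusted p = 0.210). GBP3, a guanylate-binding protein, was at -1.91 (SE 0.52) and PSMB9, an immunoproteasome subunit, at -1.35 (SE 0.55). CD274, the gene of PD-L1, had 15 and 70 against 10 and 4 counts (log2 fold change -2.32, SE 0.97, edgeR adjusted p = 0.664). The count was 6 without control replicate 2 and 1 without either USP12 library. In 10 of the 16 both USP12 libraries lay below both control libraries, beside 17% of all genes.

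**Figure D4:**
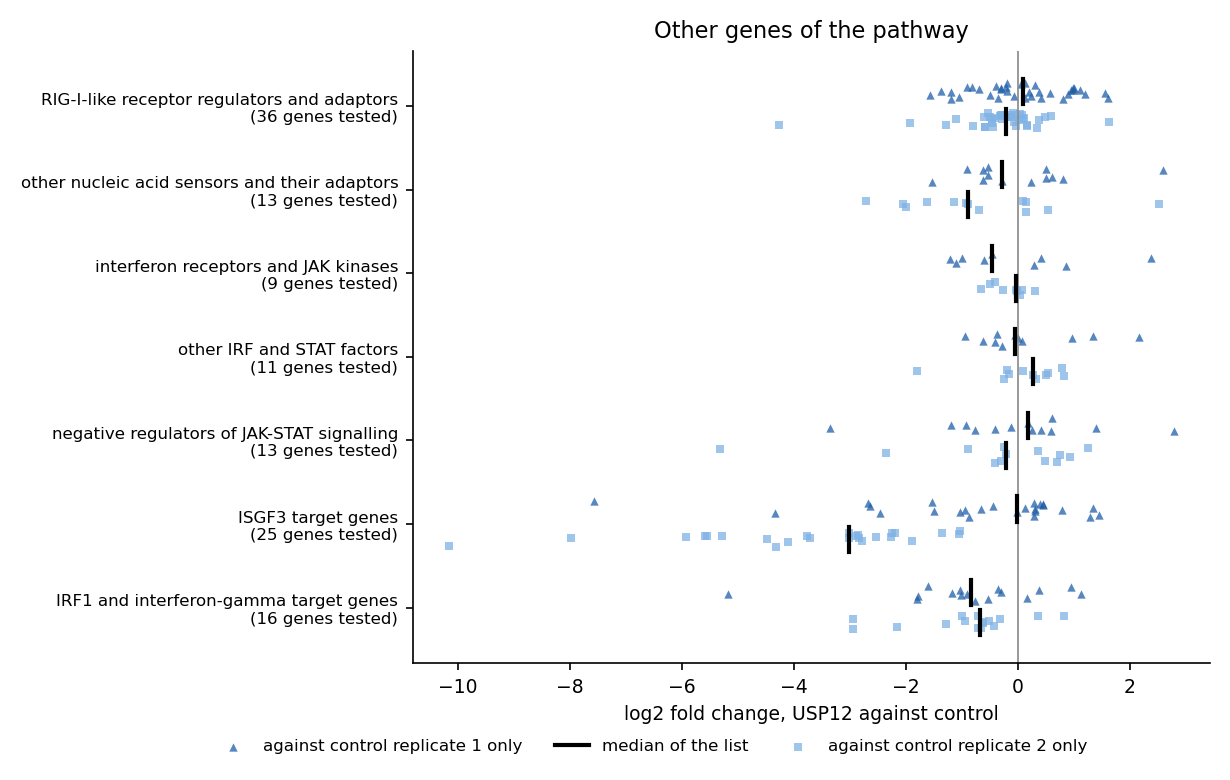
Log2 fold change in USP12 cells of each tested gene of the 7 lists against control replicate 1 alone (triangles) and control replicate 2 alone (squares), with the median of each list as a black bar. For the ISGF3 targets the medians are -0.01 and -3.01, and for the targets of IRF1 and interferon-γ they are -0.84 and -0.68.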

How the data were processed

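Processed data of 4 A549 libraries were used. The authors deposited raw counts per gene, the uniquely mapped fragments of stranded mRNA libraries, after filtering with Seqtk. Per the submitters' processing notes, HISAT2 2.0.4, GRCh38 and StringTie 1.3.0 were used. The annotation release and strand setting are not given in the sources used here.

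From the deposited counts, libraries were grouped by their titles and compared in R 4.3.3 with edgeR 4.0.16 (filterByExpr, TMM, quasi-likelihood test, group as the only term, Benjamini-Hochberg adjustment over 15222 genes). Each SE is approximate, the size of a log2 fold change over the root of its F statistic. Log2 CPM used a prior count of 2. DESeq2 1.42.0, edgeR's exact test, other scaling, filters, a replicate block and leaving out each library were alternatives. The scripts were tested on simulated data first. Positions, lengths and GC content came from GENCODE release 44 (GRCh38), matched for 99.2% of tested genes, and promoters from RefSeq (GRCh38.p14). Replicates differed beyond sampling noise (chi-square per gene 181 between control and 20.5 between USP12 libraries).

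The 9 genes and all lists were chosen with earlier results of these data known, so their counts are descriptions, read against the share of all genes. Named genes are the 9, USP12, up to 4 genes of each list with the smallest p, and the 5 nearest patterns to DDX58 and to IRF1. Of the genes this rule names, 1 is not reported here. Intervals and floors cover counting error only.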

Additional observations from a re-analysis of the deposited data

How the results depend on the processing

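The GC content offset and the fit without mitochondrial genes were added after the data had been seen. No gene, lower or higher, passed an adjusted p of 0.05 in edgeR's quasi-likelihood test (0 and 0), with DESeq2 size factors, at least 10 counts in every library or without mitochondrial genes. The genes lower and higher numbered 361 and 167 with no filter, 273 and 133 by DESeq2 Wald, 262 and 167 by edgeR exact test, 251 and 153 under a replicate block, 15 and 7 with the GC offset, and from 21 to 2542 and from 15 to 2475 when 1 library was left out. Of the 9 genes, 4, 3, 2 and 3 passed in the first 4 of these fits, and from 0 to 6 when 1 library was left out, the highest without control replicate 1. The no-filter and block fits and those without either USP12 library had infinite prior degrees of freedom, so every gene took its variance from the trend. The replicate numbers are shared across groups, no source says that they pair the libraries, and same-numbered libraries' deviations correlated at 0.152 over 2 pairs. Under the block DDX58, at -1.44, joined IFIH1, DHX58 and IRF7 past the study's criterion, 4 genes in all. With a library left out, its partner is assumed to vary like the other group.

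By that criterion 3 of the 9 genes were lower, and 5 with no filter, by DESeq2 Wald and without control replicate 1. The leave-out range was 2 to 5, the lowest without USP12 replicate 2. With at least 10 counts in every library DHX58 was not tested and 2 met it. The median log2 fold change of -1.05 lay from -1.46 to -0.91 with 1 library left out. The ISGF3 targets numbered 13, and 23 with no filter, 21 by DESeq2 Wald and from 8 to 25 with 1 library left out. Those of IRF1 and interferon-γ numbered 3, and from 1 to 6 with 1 library left out. The share of all genes that met the criterion is given for the main fit only. Changes of these counts between fits, here and for the lists above, are therefore not read as results about those genes. DDX58 lay from -2.94 to 0.11 with 1 library left out, positive without control replicate 2, and IRF3 from -1.34 to 0.32, positive without control replicate 1. The other 7 genes kept their direction under every alternative run for them. Apart from settings that by construction hold fewer libraries or genes, the cause was not tested. Depth limits DHX58, with 10 counts in the USP12 libraries together.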
